A study of Mus musculus with 14 samples.

Results

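The narrow L3mbtl1 peaks at single expressed genes were chosen by 3 features: a width of at most 400 bp, overlap with the window of 2000 bp on either side of an end of exactly 1 protein-coding gene, and a mean CPM, the count scaled to the library total, of at least 1 for that gene in CTRL cultures. The rule kept 647 of the 4677 peaks in the authors' list, at 609 genes. L3mbtl1 is a chromatin protein whose malignant brain tumour (MBT) repeats bind mono- and dimethylated lysines of histones, and it is known for compacting nucleosome arrays and for repressing transcription. Active promoters commonly hold a stretch poor in nucleosomes just before the start, flanked by positioned nucleosomes. Micrococcal nuclease (MNase), the enzyme used here to cut chromatin, digests the linker DNA between nucleosomes. Neurons kept under sustained high activity weaken their excitatory synapses, a process called synaptic downscaling, and change the expression of immediate early genes, of delayed response genes and of glutamate receptors.

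The chromatin immunoprecipitation (ChIP-seq) with an anti-L3mbtl1 antibody came from hippocampi of C57BL6/129 mice at postnatal days 7 to 8, from 3 wild-type and 3 L3mbtl1-/- samples. Chromatin was fixed with 2 mM DSG for 20 min and 1.5% formaldehyde and cut by MNase to 100 to 500 bp, and the fragment length named for the ChIP was 165 bp. One combined peak list was used here, with 1 score per peak. It carries no value per sample, so no peak has a replicate error and no comparison of wild-type with L3mbtl1-/- samples was made. RNA-seq came from another source, primary hippocampal cultures of C57BL6 mice prepared at postnatal days 0 to 1 and kept for 14 days. CTRL cultures received 0.1% DMSO for 15 h and PTX cultures received 100 µM picrotoxin, a blocker of GABA-A receptors that raises network activity, for 15 h. Each group had 4 libraries, with 14524916 to 19498189 reads counted to genes per library. A first principal component with 60.4% of the variance parted CTRL from PTX, and on a second, with 21.0%, the replicate 1 libraries of both groups stood off from the rest. Nothing in the labels says whether the 4 samples of a group were separate cultures, so p-values measure the spread between these samples.

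Width chose the peaks, and their widths ran from 165 to 400 bp with a median of 247 bp, against 401 to 5559 bp and a median of 944 bp for the 2396 broader peaks that met the other 2 criteria. The widths had 2 crowded ranges. The fullest 20-bp step was 180 to 200 bp with 104 peaks, the step from 260 to 280 bp held 32, and the last step below the limit held 72. Just inside the limit lay a peak of 400 bp at Sik2 and one at Uhrf1bp1l, and just outside lay peaks of 401 bp at Commd2 and Amigo1. At the expression limit, Dnajc19 with 1.19 CPM and Klf4 with 1.35 CPM in CTRL were inside, and Pou2f2 with 0.91 CPM and E2f2 with 0.87 CPM were outside. A further 250 peaks of at most 400 bp lay at the ends of 2 or more genes and 191 lay at no gene end. Another 16 at 1 gene were not kept, 10 for a level under 1 CPM and 6 for a gene not matched to the counts. The 609 genes were 4.59% of the 13257 expressed protein-coding genes.

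**Figure D1:**
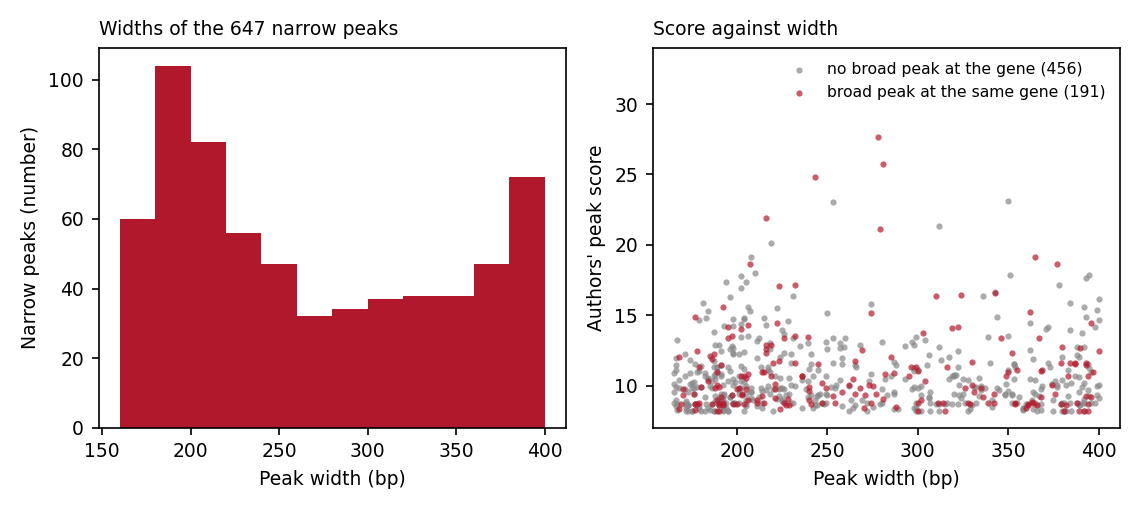
Left, number of narrow peaks per 20-bp step of width (bp). Right, the authors' peak score (no unit) against width for each narrow peak, coloured by whether a broader peak lay at the same gene (191 peaks) or not (456). Peaks crowd at 180 to 200 bp and again below the 400-bp limit, and scores show no trend over this limited range of widths (Spearman correlation 0.03).

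Sequences of 7 promoters are printed to show where a narrow peak lay relative to the transcription start. They are the 250 bases before the RefSeq start (GRCm38), 5′ to 3′ on the strand of the gene, and capitals mark the bases covered by a narrow peak. The first 6 belong to genes with a high score or a large change and are given in order of score. The windows of Rnpc3 and Sik2, chosen on the same terms, are not printed. Their peaks lay downstream of the start and covered none of the 250 bases, so the printed windows show no such peak alone. Fos was added after its values were seen, for its place in activity research. The windows were chr12:27342719-27342968 for Sox11 on the minus strand, chr15:12204778-12205027 for Mtmr12 on the plus strand, chr7:128461514-128461763 for Tial1 on the minus strand, chr17:35134963-35135212 for Bag6 on the plus strand, chr8:99416472-99416721 for Cdh8 on the minus strand, chr13:91460847-91461096 for Ssbp2 on the plus strand and chr12:85473640-85473889 for Fos on the plus strand.
Sox11: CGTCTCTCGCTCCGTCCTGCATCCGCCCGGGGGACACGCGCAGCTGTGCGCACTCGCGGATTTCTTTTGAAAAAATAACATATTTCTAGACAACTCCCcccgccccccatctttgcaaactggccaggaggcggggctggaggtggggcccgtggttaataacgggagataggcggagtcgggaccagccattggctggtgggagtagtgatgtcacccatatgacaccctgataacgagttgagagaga
Mtmr12: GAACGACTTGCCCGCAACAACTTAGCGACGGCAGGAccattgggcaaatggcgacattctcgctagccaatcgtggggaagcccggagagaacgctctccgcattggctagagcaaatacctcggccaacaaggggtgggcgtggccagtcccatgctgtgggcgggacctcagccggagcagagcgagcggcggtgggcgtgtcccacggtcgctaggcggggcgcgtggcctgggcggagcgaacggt
Tial1: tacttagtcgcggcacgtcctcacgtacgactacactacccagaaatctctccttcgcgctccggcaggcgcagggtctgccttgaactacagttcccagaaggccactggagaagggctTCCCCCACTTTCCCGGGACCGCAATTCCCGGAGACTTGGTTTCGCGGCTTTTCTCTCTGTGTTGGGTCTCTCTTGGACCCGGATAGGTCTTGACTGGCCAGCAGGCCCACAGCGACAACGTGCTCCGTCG
Bag6: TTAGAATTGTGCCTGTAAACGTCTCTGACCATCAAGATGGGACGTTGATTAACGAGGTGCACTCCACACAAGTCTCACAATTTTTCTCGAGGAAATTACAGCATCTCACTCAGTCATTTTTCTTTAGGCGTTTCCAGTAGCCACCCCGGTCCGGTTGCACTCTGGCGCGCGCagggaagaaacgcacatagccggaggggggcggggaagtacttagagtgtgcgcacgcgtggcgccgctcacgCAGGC
Cdh8: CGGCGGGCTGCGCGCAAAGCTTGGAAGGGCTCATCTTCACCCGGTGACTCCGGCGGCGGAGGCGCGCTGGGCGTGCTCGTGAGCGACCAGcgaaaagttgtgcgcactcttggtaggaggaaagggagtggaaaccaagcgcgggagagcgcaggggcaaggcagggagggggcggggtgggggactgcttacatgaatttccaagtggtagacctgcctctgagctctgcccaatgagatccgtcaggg
Ssbp2: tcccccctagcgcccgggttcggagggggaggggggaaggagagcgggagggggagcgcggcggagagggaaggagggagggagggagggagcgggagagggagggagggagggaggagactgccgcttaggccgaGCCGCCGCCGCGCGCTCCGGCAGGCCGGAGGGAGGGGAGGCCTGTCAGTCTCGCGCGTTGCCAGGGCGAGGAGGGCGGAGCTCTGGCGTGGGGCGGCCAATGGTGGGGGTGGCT
Fos: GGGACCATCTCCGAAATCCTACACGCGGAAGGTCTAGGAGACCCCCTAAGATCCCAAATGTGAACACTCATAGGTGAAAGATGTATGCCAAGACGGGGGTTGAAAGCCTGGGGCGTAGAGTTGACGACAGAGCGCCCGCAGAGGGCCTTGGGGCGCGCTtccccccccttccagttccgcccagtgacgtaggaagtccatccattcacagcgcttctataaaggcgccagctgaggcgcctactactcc

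In the promoters of Sox11, Mtmr12, Cdh8 and Fos the peak covered the far end of the window, and the last covered base was -153, -215, -161 and -92, counted back from the start at -1. Sox11 encodes a transcription factor of neuronal differentiation, Mtmr12 a catalytically inactive myotubularin and Cdh8 a classical cadherin of synapses. At Tial1, the gene of an RNA-binding stress granule protein, and at Ssbp2, the gene of a single-stranded DNA-binding protein, the peak ran over the start and covered the last 130 and 114 bases. Bag6, which encodes a chaperone of tail-anchored and misfolded proteins, had 2 narrow peaks, with widths of 208 and 172 bp, and 73 bp between them were uncovered. That uncovered stretch held a GC box (GGGCGGG) from base -51 to -45. In Sox11, Mtmr12 and Cdh8 the GC boxes also lay outside the peak, at -152 to -146, -90 to -84 and -80 to -74. Mtmr12 held 3 CCAAT boxes, the first and last at -212 to -208 and -148 to -144, and none was covered. A CCAAT box of Ssbp2, at -18 to -14, lay under the peak, while those of Sox11 and Cdh8 did not. The Fos window held a short form of the cyclic AMP response element (TGACG) at -129 to -125 under the peak, and a second short form at -66 to -62 and a TATAAA at -33 to -28 outside it.

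A start with its strand was listed for the genes of 522 of the 647 peaks. By the rule every peak overlapped the window of 2000 bp on either side of a gene end. For 511 of the 522 that end was the start of the gene, so closeness to the start was largely set in advance. Within that bound, 54.4% (284) had their midpoint within 250 bp of the listed start and 91.8% (479) within 1000 bp. Most lay beside the start, and 16.7% (87) covered the start base. Of the 503 peaks with a midpoint within 2000 bp, 249 lay upstream and 254 downstream. Coverage, taken every 25 bp, had 2 maxima. It reached 30.8% of peaks (161) at 200 bp upstream and 33.0% (172) at 125 bp downstream, and it was 13.2% (69) at 25 bp upstream. The same figures for the 425 peaks at genes with 1 listed start were 30.6%, 33.6% and 13.4%, and for the 204 peaks whose score reached the list's median they were 34.3%, 30.9% and 15.2%.

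The dip was shallower in the broader peaks. Of 1873 with a listed start, 45.1% (845) covered it. Their coverage was 44.5% at 225 bp upstream, 42.1% at 75 bp upstream and 53.9% at 125 bp downstream. Width alone changes how often a peak reaches a start and how deep a dip appears. Each broader peak was therefore also reduced to its central stretch of the median narrow width, and 10.998% (206) then covered the start. The depth of the dip was not compared on these stretches. Only 23.1% (433) of the broader peaks had their midpoint within 250 bp of the start. No test was run on these shares, because width chose the groups.

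**Figure D2:**
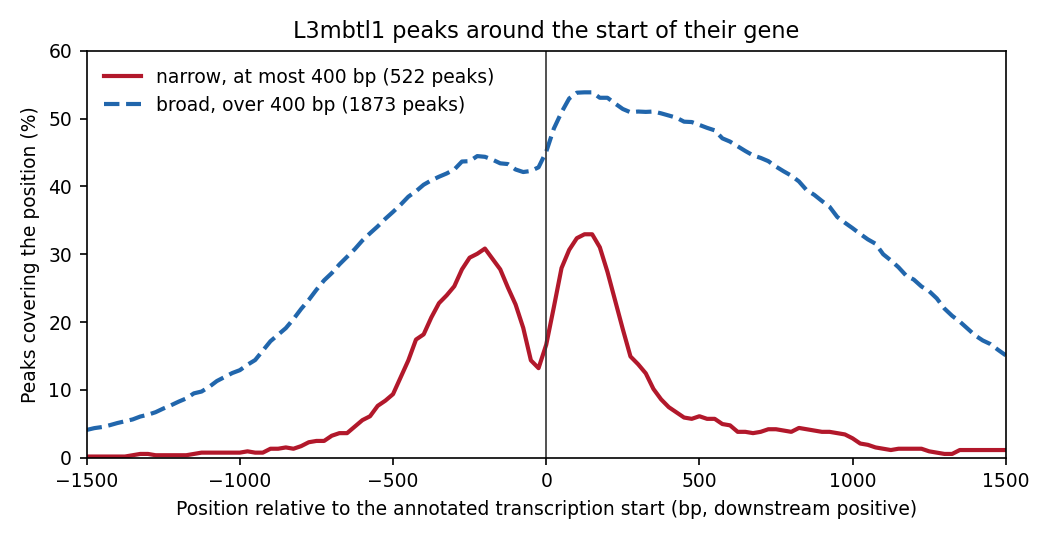
Share of peaks (%) that covered each position (bp, downstream positive) around the annotated transcription start, taken every 25 bp, for 522 narrow and 1873 broader peaks at single expressed genes. The narrow peaks rise to 30.8% at 200 bp upstream and 33.0% at 125 bp downstream with a low of 13.2% at 25 bp upstream, and the broader peaks have maxima of 44.5% and 53.9% with a low of 42.1% between them.

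Many narrow peaks had a neighbour. The next peak of the list lay within 1000 bp for 36.3% (235) of them. The figure was 94.8% (181 of 191) at genes that also carried a broader peak and 11.8% (54 of 456) at genes that did not. By its definition the first group has another listed peak at an end of the same gene, so the split itself largely sets this contrast. At the 179 genes with both kinds, 41.2% of narrow peaks with a listed start had their midpoint within 250 bp of it, against 59.6% at the 430 genes with narrow peaks only. Such neighbours include the 2671-bp peak 96 bp from the narrow peak at Sox11 and the 745-bp peak 102 bp from the one at Fos. Where 1 enriched stretch was split in the list could not be read from the files.

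At 37 genes there were 2 or more narrow peaks, with 36 genes at 2 and Chd7, the gene of a chromatin remodeller, at 3. The peaks of such a gene spanned a median of 677 bp with a median gap of 106 bp, and at 19 of the 31 genes with a listed start they lay on both sides of it. Bcl6, a transcriptional repressor gene, had midpoints at 231.5 bp upstream and 407.5 bp downstream. Ptges2, which encodes a prostaglandin E synthase, had them at 175.5 bp upstream and 99.5 bp downstream, and Myo1e, the gene of a class I myosin, at 217.0 bp upstream and 91.5 bp downstream. Both peaks of Wnt7a, a gene of a secreted Wnt ligand, lay upstream, with midpoints at 713.0 and 397.5 bp.

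The authors' scores of the narrow peaks ran from 8.17 to 27.7 with a median of 9.94, against 8.17 to 52.2 and a median of 11.01 for the broader peaks. Of the narrow peaks 38.6% (250) reached the whole list's median of 10.7. Within the narrow peaks score did not follow width (Spearman correlation 0.03 over 647 peaks, given as a description). Nor did it follow the gene's level in CTRL cultures (correlation -0.0049). Over all peaks of the list the correlation of score with width was 0.32. By the rule the narrow peaks span a small part of the list's widths, so these width correlations are not directly comparable. The highest score, 27.7, belonged to a 278-bp peak at chr9:118925205-118925482, 1054 bp upstream of the start of Ctdspl, a gene of a small phosphatase of RNA polymerase II. The next were a 281-bp peak at Sox11 with 25.7, a 243-bp peak at Mllt3, a gene of a super elongation complex partner, with 24.8, a 350-bp peak at the Sm-like protein gene Lsm4 with 23.1 and a 253-bp peak at the minor spliceosome gene Rnpc3 with 23.0. The 10 were completed by Mtmr12 (21.9), the ribosomal protein gene Rpl17 (21.4), Tial1 (21.1), the clathrin adaptor gene Ap1m1 (20.1) and Bag6 (19.1). The narrowest peaks, of 165 to 166 bp, lay at the adaptor gene Sh2b1, the neuronal calcium sensor gene Hpcal4, the splicing regulator gene Sfswap, the elongation complex gene Leo1 and BC052040. In 4 of these 5 the peak ended before the start, by 38 to 127 bp, and at Leo1 it began 207 bp after it.

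Promoter windows from 250 bases before to 50 after the start were examined where a narrow peak overlapped one, which gave 312 windows. They were rich in CpG: the median GC content was 61.0%, and 93.9% had an observed over expected CpG ratio of at least 0.6. That share was 93.0% for windows under broader peaks, 62.1% for expressed genes without a peak at an end and 35.8% for all windows of the table. A search on both strands for 11 motifs found the GC box of SP and KLF factors (GGGCGGG) in 53.2% of the windows under narrow peaks, in 57.1% under broader peaks, in 43.5% at expressed genes without a peak and in 25.6% of all windows. CCAAT was found in 45.8%, 40.6%, 36.8% and 37.4% of the same 4 sets, and the ETS motif (CCGGAAG) in 19.2%, 15.5%, 15.5% and 8.86%. TATAAA was less frequent, at 4.49%, 4.42%, 7.57% and 13.6%. The full cyclic AMP response element (TGACGTCA), the site of CREB, stood in 4.17% of windows under narrow peaks and its short form (TGACG), which lies within the full element, in 34.6%, against 2.97% and 34.1% under broader peaks. A match is a string of letters and was not tested as a bound site.

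Within those 312 windows the narrow peaks covered 39.1% of the bases, but they covered 15.8% of the CCAAT matches (38 of 240), 20.4% of the GC boxes (62 of 304) and 20.7% of the NRF1 matches (GCGCATGCG, 6 of 29). For CCGGAAG the share was 31.3% (21 of 67), for TGACG 30.4% (45 of 148), and for the E-box CACGTG 45.9% (17 of 37). The broader peaks covered 70.3% of the bases of their 1177 windows, with 58.8% of CCAAT matches and 55.8% of GC boxes. CCAAT and GC boxes sit at preferred distances from starts, and coverage also changes with that distance. Whether the distance accounts for these shares was not tested.

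**Figure D3:**
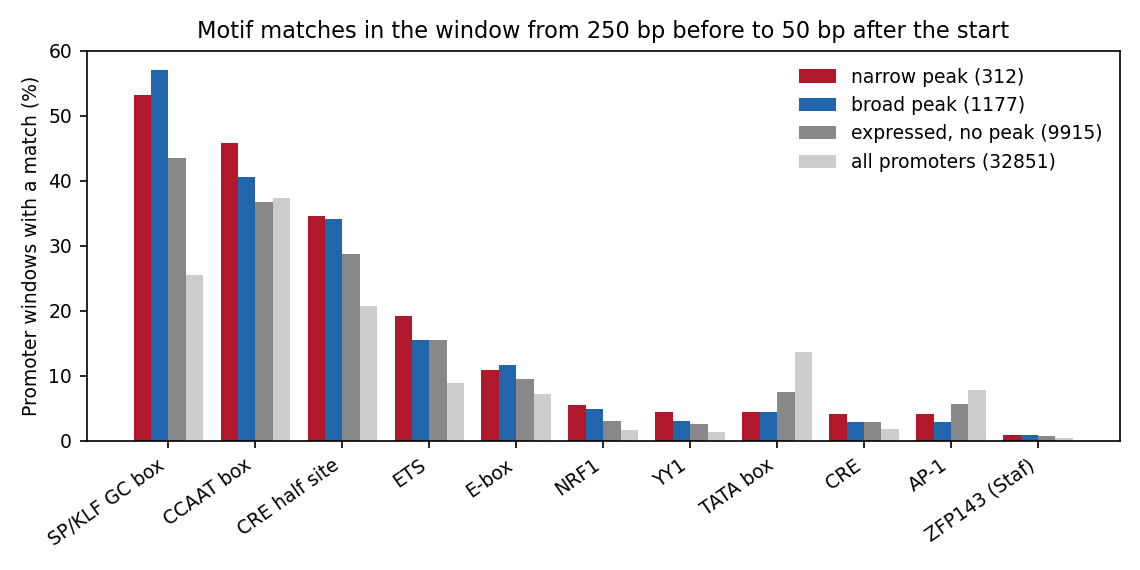
Share (%) of promoter windows, 250 bp before to 50 bp after the start, that held each of 11 motifs on either strand, for windows under narrow peaks (312), under broader peaks (1177), at expressed genes without a peak (9915) and in the whole table (32851). The GC box stands in 53.2% of windows under narrow peaks, 43.5% at expressed genes without a peak and 25.6% of all windows. For the TATA box these shares are 4.49%, 7.57% and 13.6%.

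The RNA-seq compared PTX with CTRL cultures and so asked how transcripts of genes with a narrow peak responded to sustained activity. The rule used the CTRL level of each gene but not its difference with PTX, and genes near 0 in CTRL could not enter. All 609 genes were tested in the fit over 15959 genes. With edgeR's quasi-likelihood test and a Benjamini-Hochberg adjusted p below 0.05, 291 of the 609 (47.8%) were called, against 39.2% of all genes tested. Of these, 150 rose (24.6%, against 19.0% of all genes) and 141 fell (23.2%, against 20.1%). The median log2 fold change was -0.01, against -0.03 over all genes tested. Called rises of at least 2-fold numbered 32 and called falls of that size 22, together 8.87% of the narrow-peak genes. The same share was 11.9% of all genes tested and 10.3% of protein-coding genes with at least 1 CPM in CTRL. All 4 PTX libraries lay above all 4 CTRL libraries for 148 genes, where 18.4% of all genes did so, and below them for 140, where 19.5% did. With the replicate number as a block, 194 rose and 197 fell, where 25.7% and 29.6% of all genes did.

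The share called moves with expression, and genes with a narrow peak had a median CTRL level of 43.0 CPM against 19.6 CPM over all genes tested. Among expressed protein-coding genes 41.4% were called, among those without a peak at an end 40.4%, and among genes of broader peaks 48.4% (557 rose and 430 fell of 2038). Between 10 and 100 CPM the shares were 47.8% of 366 genes with a narrow peak, 49.96% of 1211 genes with a broader one and 44.1% of 5182 genes without. In the lowest range, 1 to 10 CPM, they were 36.5% of 85, 43.1% of 253 and 29.8% of 2819. At 100 CPM or more the narrow-peak genes had the highest of the 3 shares, 53.8% of 158, against 47.6% of 574 and 47.1% of 1585. The 179 genes that also had a broader peak had 61 rises and 37 falls (54.7% called), and the 430 with narrow peaks only had 89 rises and 104 falls (44.9%). By position, 53.6% of 224 genes with a peak up to 1000 bp upstream of the start were called, and 43.8% of 226 with one up to 1000 bp downstream. These differences between sets of genes were not tested.

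**Figure D4:**
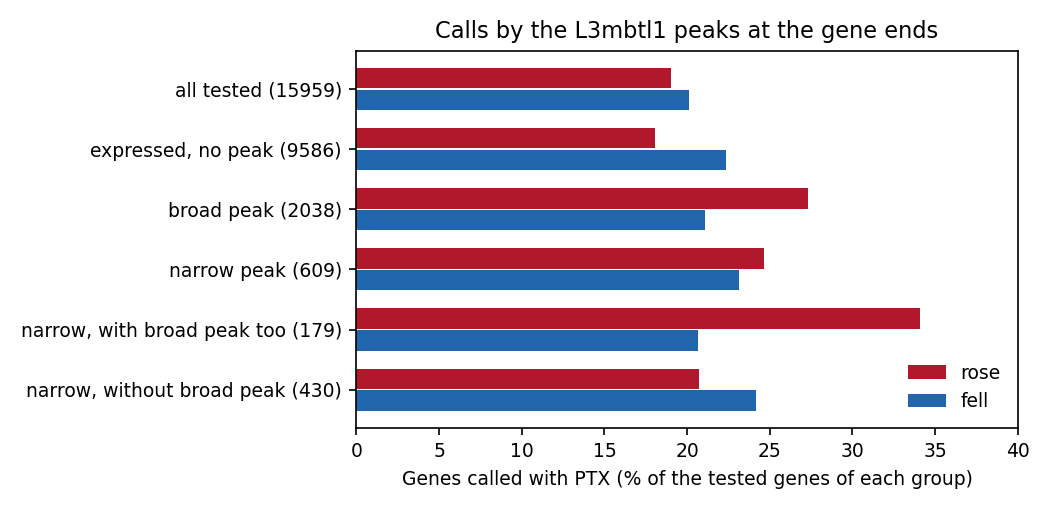
Share (%) of the tested genes in each group that rose or fell with PTX (edgeR, adjusted p below 0.05), with the number of genes tested in brackets. Genes with a narrow peak have 24.6% rises and 23.2% falls, those with a broader peak as well 34.1% and 20.7%, and those with narrow peaks only 20.7% and 24.2%.

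Transcripts of activity-regulated genes stood at the top of the rises. Fos, the gene of an AP-1 transcription factor and the standard marker of recent neuronal activity, measured 16.98, 36.9, 25.6 and 19.5 normalised CPM in CTRL replicates 1 to 4 and 321, 283, 379 and 322 CPM in PTX. The groups were far apart, with a 13.2-fold rise (log2 3.72 ± 0.23 SE, edgeR adjusted p = 3.26e-06). Its narrow peak of 170 bp had a score of 9.34 and lay at chr12:85473629-85473798. Klf4, a zinc finger transcription factor gene close to the expression limit, had 0.65, 1.35, 1.35 and 1.89 CPM in CTRL and 4.85, 3.83, 8.55 and 8.86 CPM in PTX. Its rise was 4.97-fold (log2 2.31 ± 0.37 SE, edgeR adjusted p = 0.000764), and its 195-bp peak with a score of 14.1 was centred 401 bp before the start. Klf6, of the same factor family, had 165, 179, 168 and 171 CPM in CTRL and 345, 246, 378 and 311 CPM in PTX, a 1.87-fold rise without overlap. Srf, whose protein drives many immediate early promoters, had 22.6 ± 2.51 CPM in CTRL and 21.5 ± 2.03 in PTX (SD, n = 4) and its groups overlapped. Of 24 expressed immediate early genes listed, these 4 had a narrow peak and 9 had a broader one. Over the whole list 21 rose and 1 fell, with a median log2 change of 1.77.

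Among 28 delayed activity-response genes, Gadd45g, Spry2 and Tiparp had a narrow peak and all rose, while over the list 27 rose and none of the 28 fell. Gadd45g, a gene of DNA demethylation and stress signalling, had 18.9, 33.0, 25.9 and 28.5 CPM in CTRL and 150, 160, 228 and 184 CPM in PTX. Every PTX value was above every CTRL value, a 6.79-fold rise (log2 2.76 ± 0.19 SE, edgeR adjusted p = 4.79e-06). Its peak of 168 bp was centred 1897.5 bp downstream of the start, and a broader peak was also present. Spry2, an inhibitor of receptor tyrosine kinase signalling, went from 38.7 ± 6.06 to 111 ± 7.16 CPM (SD, n = 4), and Tiparp, a mono-ADP-ribosyltransferase gene, from 67.3 ± 2.36 to 151 ± 23.5. Both rose without overlap of the groups, by 2.88-fold and 2.25-fold.

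Other large rises were in a transcription factor, neuropeptide, receptor and kinase genes. Nfil3, a bZIP repressor gene tied to circadian output, had 8.26, 11.4, 10.6 and 10.8 CPM in CTRL and 85.1, 87.5, 96.7 and 91.7 CPM in PTX, an 8.79-fold rise (log2 3.14 ± 0.11 SE, edgeR adjusted p = 4.16e-07). Nppc, which encodes C-type natriuretic peptide, had 7.61, 12.4, 6.14 and 7.71 CPM in CTRL and 46.6, 54.0, 44.5 and 38.7 CPM in PTX. Sstr2, a somatostatin receptor gene, had 9.85, 7.13, 9.44 and 7.71 CPM in CTRL and 37.8, 45.8, 39.6 and 30.0 CPM in PTX. These 2 genes rose 5.43-fold and 4.49-fold, and in both the lowest PTX library was far above the highest CTRL library. Sik2, a salt-inducible kinase gene whose protein phosphorylates CREB coactivators, had 22.5, 20.3, 20.8 and 23.5 CPM in CTRL and 89.3, 79.7, 90.7 and 98.3 CPM in PTX. Its replicates were tight in both groups (log2 2.04 ± 0.09 SE, edgeR adjusted p = 5.23e-07), and its 400-bp peak began 38 bp after the start with no broader peak at the gene.

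Onecut2, a homeodomain transcription factor gene, had 5.07, 2.02, 2.30 and 3.46 CPM in CTRL and 27.6, 10.1, 23.9 and 19.4 CPM in PTX. Its spread in PTX was the widest relative to the mean among the 10 largest rises of genes with a mean of at least 5 CPM. It rose 6.32-fold (log2 2.66 ± 0.36 SE, edgeR adjusted p = 0.000285). The kinase-anchoring protein gene Akap13, the Rac activator gene Elmo1 and the glutaminase gene Gls2 rose 3.59-fold, 3.49-fold and 3.46-fold. Elmo1 had 26.8, 26.3, 27.4 and 27.0 CPM in CTRL and 85.4, 86.8, 124 and 79.2 CPM in PTX. Sox11 rose 2.97-fold, from 109 ± 18.8 to 325 ± 72.2 CPM (SD, n = 4), and Mllt3 rose 1.73-fold, from 59.99 ± 3.78 to 104 ± 12.1 CPM.

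**Figure D5:**
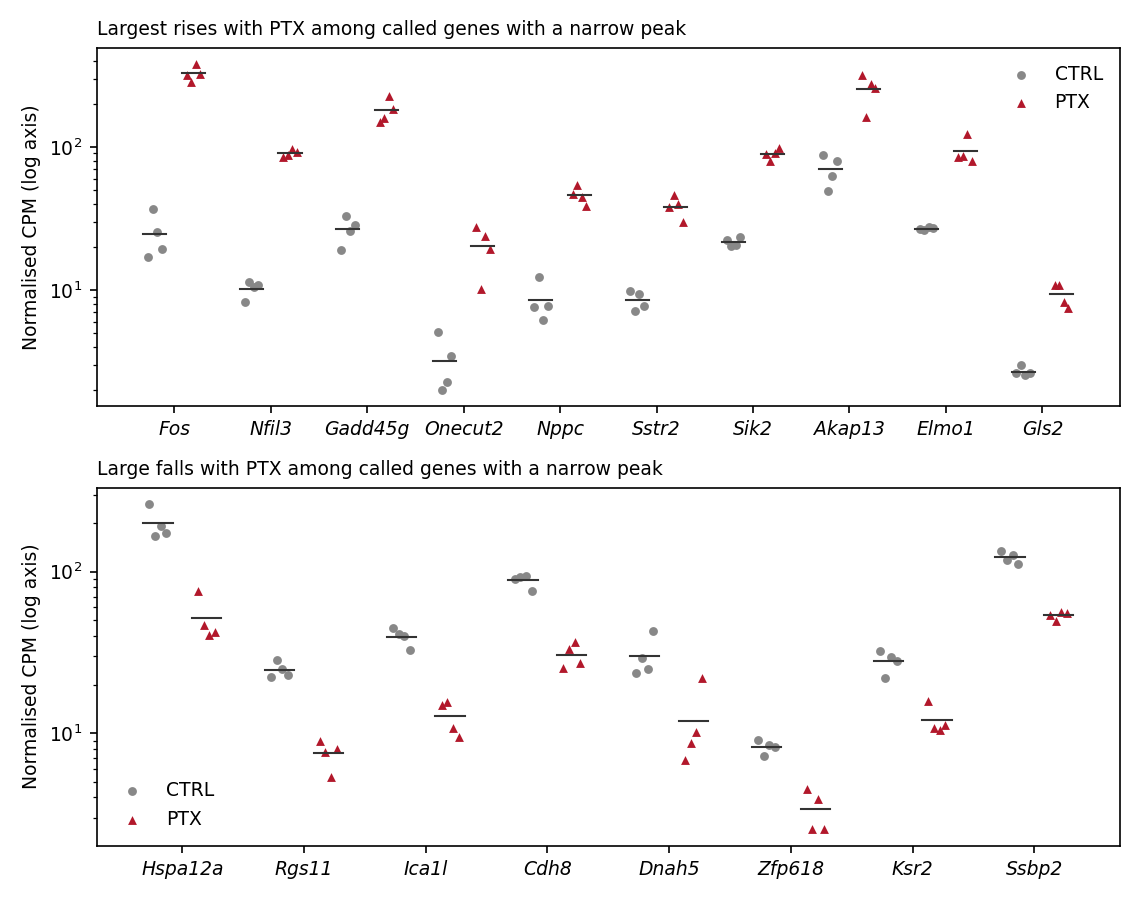
Normalised CPM (log axis) in each of the 4 CTRL (circles) and 4 PTX (triangles) libraries for the 10 largest rises (top) and 8 large falls (bottom). They were taken among called genes with a narrow peak and a mean of at least 5 CPM, which leaves out Klf4. Lines mark group means. Groups do not overlap in any of these genes, as the rule for naming them required, and Fos is highest in PTX at 379 CPM while Dnah5 has the widest spread among the falls.

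Genes of synaptic scaling and glutamate receptors that carried a narrow peak included Grin2a and Shank2. Over the 39 expressed genes of that list 7 rose and 18 fell. Grin2a, an NMDA receptor subunit gene, had 79.9 ± 8.51 CPM in CTRL and 69.4 ± 8.15 in PTX (SD, n = 4). It was called lower only with the replicate block, and the postsynaptic scaffold gene Shank2 was called in neither fit.

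Genes of adhesion and signalling were among the large falls. Cdh8 had 90.3, 92.5, 94.5 and 75.8 CPM in CTRL and 25.4, 33.4, 36.5 and 27.3 CPM in PTX. The fall was 2.88-fold, with no overlap between groups. Rgs11, a regulator of G protein signalling, had 22.4, 28.3, 25.02 and 23.0 CPM in CTRL and 8.94, 7.67, 5.38 and 7.95 CPM in PTX, a 3.29-fold fall. Ksr2, a scaffold of the Raf to ERK cascade, fell 2.30-fold, from 27.8 ± 4.36 to 12.1 ± 2.57 CPM (SD, n = 4).

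Hspa12a, of the HSP70 family, had 263, 167, 192 and 173 CPM in CTRL and 76.1, 46.5, 40.6 and 42.4 CPM in PTX, so that replicate 1 was the highest of its group in both conditions. It fell 3.86-fold (log2 -1.95 ± 0.22 SE, edgeR adjusted p = 9.75e-05). Ssbp2, whose peak ran over the start, had 135, 118, 126 and 111 CPM in CTRL and 54.1, 49.8, 56.2 and 55.2 CPM in PTX, a 2.28-fold fall. Ica1l, a BAR domain protein gene, fell 3.12-fold and the zinc finger gene Zfp618 fell 2.43-fold. Dnah5, the gene of an axonemal dynein heavy chain, had 23.4, 29.3, 24.9 and 42.6 CPM in CTRL and 6.83, 8.73, 10.1 and 22.0 CPM in PTX, with replicate 4 highest in both groups. Its fall was 2.52-fold (edgeR adjusted p = 0.0116), and its only listed start lay 48685 bp from the peak.

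The genes with the highest scores did not move one way. Of the 10, Sox11 and Mllt3 rose, Ctdspl, Rnpc3, Mtmr12, Ap1m1 and Bag6 fell, and Lsm4, Rpl17 and Tial1 were not called. Ctdspl had 11.1, 12.4, 16.5 and 15.6 CPM in CTRL and 7.66, 9.14, 8.89 and 10.7 CPM in PTX, a 1.53-fold fall (edgeR adjusted p = 0.0139) that was no longer called without PTX replicate 1 or without PTX replicate 3 (adjusted p up to 0.0561). Rnpc3 had 96.6, 99.4, 91.7 and 105 CPM in CTRL and 67.0, 63.0, 74.9 and 75.1 CPM in PTX, a 1.40-fold fall (edgeR adjusted p = 0.00141). The falls of Bag6 (log2 -0.23, edgeR adjusted p = 0.0421) and Mtmr12 (log2 -0.34, edgeR adjusted p = 0.0118) were small. Bag6 was not called in 10 of 13 alternative fits, where its adjusted p reached 0.253, including the omission of any library but CTRL replicate 4. The call of Mtmr12 was lost without PTX replicate 3 (adjusted p = 0.0533). Among the 244 genes whose peaks reached the list's median score, 68 rose and 49 fell (48.0% called), and among the other 365 there were 82 rises and 92 falls (47.7%).

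Of the 37 genes with 2 or more narrow peaks, 11 rose, 6 fell and 20 were not called, so that 45.9% were called against 47.9% of the 572 genes with 1 narrow peak. With the replicate block 14 rose and 11 fell. Bcl6 had 12.1, 11.6, 12.6 and 12.9 CPM in CTRL and 24.7, 21.0, 24.5 and 28.2 CPM in PTX, a 2.00-fold rise (log2 1.00 ± 0.11 SE, edgeR adjusted p = 7.32e-05). Wnt7a had 18.4, 23.4, 24.1 and 21.6 CPM in CTRL and 7.59, 11.9, 14.0 and 9.47 CPM in PTX, a 2.04-fold fall (log2 -1.03 ± 0.18 SE, edgeR adjusted p = 0.00146). The focal adhesion kinase gene Ptk2 and the signal peptidase gene Spcs3 rose by log2 changes of 0.84 and 0.69. Chd7 had 37.6 ± 3.25 CPM in CTRL and 46.3 ± 4.33 in PTX (SD, n = 4). It rose 1.23-fold (edgeR adjusted p = 0.0302), and that call was lost in 5 of 13 alternative fits, among them those without CTRL replicate 2, CTRL replicate 3 or PTX replicate 3 (adjusted p up to 0.0829).

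Genes of protein turnover, trafficking and transport moved in both directions. Of 236 expressed genes of ubiquitin ligases, conjugating enzymes and proteases, 15 had a narrow peak, with 3 rises and 3 falls: Rnf217 rose 2.45-fold, Rnf103 and Ube2s rose by log2 changes of 0.35 and 0.42, and Ube2n, Ube2d1 and Ube2q2 fell. Over the whole list 55 rose and 48 fell. With the replicate block Ube2l6, Rnf169 and Rnf165 were called lower as well. The calls of Ube2n, Ube2d1 and Ube2q2 were lost in 5, 9 and 8 of 13 alternative fits, and in each case on leaving out CTRL replicate 1, PTX replicate 3 or PTX replicate 4, with adjusted p up to 0.116, 0.182 and 0.185. Of 144 genes of vesicle coats and trafficking, 9 had one, with 4 rises, among them the small GTPase gene Arf2 (log2 0.83) and the COPII genes Sec16a (0.58) and Sec31a (0.47), and 3 falls, led by the sorting nexin gene Snx32 (log2 -0.79). Over that list 31 rose and 39 fell, and the block added a lower call for Vps33a. Solute carriers had 10 genes of 248, with 5 rises and 2 falls, where 62 rose and 58 fell of the 247 tested. The block added a higher call for Slc25a36. Slc25a37, the mitoferrin gene, rose 1.72-fold, and the fatty acid transporter gene Slc27a1 fell by 0.50 on the log2 scale. All 13 of the 357 expressed Zfp genes with a narrow peak were tested: Zfp618, Zfp94 and Zfp882 fell, and none rose in the fit without the block. With it Zfp260 was called higher and Zfp362 and Zfp119a lower. Over the 357 genes 66 rose and 66 fell. The call of Zfp882 was lost in 8 of 13 alternative fits, on leaving out any library but PTX replicate 4, with an adjusted p of up to 0.113.

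Chaperones had 4 genes of 77, a list with 25 rises and 11 falls. Hsph1, of the HSP110 family, rose 2.54-fold from 122 ± 13.8 to 310 ± 33.8 CPM (SD, n = 4), Hspa12a and Bag6 fell, and Dnajc19 was not called. Of 52 genes of the MAP kinase pathway, of which 14 rose and 11 fell, 3 had a narrow peak. Map2k3, the kinase upstream of p38, had 6.19, 6.23, 6.19 and 6.08 CPM in CTRL and 18.9, 13.6, 17.03 and 16.7 CPM in PTX, a 2.68-fold rise (edgeR adjusted p = 2.11e-05). Mapkapk5, a substrate kinase of p38, rose by 0.33 on the log2 scale and Map3k7 was not called. Cytosolic ribosomal protein genes had 7 narrow-peak genes of 76, of which Rps27l and Rpl8 rose by log2 changes of 0.305 and 0.302, and over the 76 genes 8 rose and 1 fell. The call of Rps27l was lost without CTRL replicate 2 (adjusted p = 0.0616) and with no filter on low counts (0.0697). That of Rpl8 (edgeR adjusted p = 0.0495) was lost in 6 of 13 alternative fits. These were the fits without CTRL replicate 2, 3 or 4 or PTX replicate 2 (up to 0.123), with no filter on low counts (0.0742) and with upper-quartile scaling (0.0688). Reads of such genes are uncertain, because near-identical copies exist. Among 75 genes of DNA repair and replication, the transcription-coupled repair gene Ercc6 rose 1.64-fold and the Fanconi anaemia genes Fancl and Fancg fell, out of 5 with a narrow peak, while over the list 7 rose and 13 fell. Fancg was not called without PTX replicate 3 (adjusted p = 0.0752).

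Smaller groups added single calls. Of 77 splicing genes 6 had a narrow peak, with Prpf38b higher and Srsf6 lower by log2 changes of 0.32 and -0.30. The call of Prpf38b was lost without CTRL replicate 2 or 3 (adjusted p up to 0.0548). That of Srsf6 was lost in 5 of 13 alternative fits. These left out replicate 1 of CTRL, of PTX or of both, or PTX replicate 3 or 4 (adjusted p up to 0.134). Over the splicing list 12 rose and 11 fell. Translation initiation had Eif5 higher among 4 genes, and with the replicate block Eif3j1 and Eif2s3x as well, on a list with 26 rises and 4 falls among 52. The tRNA synthetases had Qars higher among 2, and Mars1 too with the block, on a list with 13 rises and 6 falls among 34. The respiratory chain list had the assembly factor gene Ndufaf1 higher among 2, and Cox7a2l was called lower with the block, where 5 of the 87 listed genes rose and 2 fell. The Rab list had Rab3ip, the gene of a Rab-interacting protein and not of a Rab GTPase, higher among 2 (2.00-fold). Over that list 10 of 61 rose and 14 fell. Nuclear pore genes, with 11 rises and 7 falls among 37, had Nup85 lower (log2 -0.31), a call lost in 8 of 13 alternative fits, including the omission of replicates 1 and 3 of CTRL and 1, 3 and 4 of PTX, each alone (adjusted p up to 0.137). Of 3 mitochondrial ribosomal genes, 2 proteasome genes, 2 Mediator genes and 1 synaptic vesicle gene with a narrow peak, none was called at an edgeR adjusted p below 0.05. With the replicate block 1 mitochondrial ribosomal gene (Mrps30), 1 gene of the proteasome list (Psmg4, an assembly factor gene) and 1 Mediator gene (Med27) were called higher, and Mrpl11 lower. Over these 4 lists the rises and falls were 10 and 3 of 75, 11 and 1 of 48, 6 and 6 of 30, and 2 and 8 of 26.

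The genes whose promoter window overlapped a narrow peak and held the full cyclic AMP response element numbered 13, and 4 of the 13 elements lay under the peak itself. Of these genes Spag4, Zbtb21 and Htt rose and Lmbrd1, Pot1a and Neurl1a fell. Htt, the huntingtin gene, rose by 0.63 on the log2 scale, and Neurl1a, a ubiquitin ligase gene of synaptic plasticity, fell by 0.85 on the log2 scale, from 38.3 ± 5.88 to 21.3 ± 1.98 CPM (SD, n = 4). The 3 rises and 3 falls were 23.1% each, against 27.0% rises and 15.3% falls among the 385 expressed protein-coding genes with the full element. With the short form, 27 of 107 narrow-peak genes rose (25.2%) and 20 fell (18.7%). Without it, 42 of 204 rose (20.6%) and 54 fell (26.5%). Over all expressed protein-coding genes with a listed promoter the shares were 24.6% and 19.3% with the short form and 16.9% and 23.1% without.

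L3mbtl1, the antibody's target, carried no narrow peak. Its transcript had 9.85, 8.81, 10.0 and 11.2 CPM in CTRL and 2.36, 5.60, 1.52 and 2.18 CPM in PTX, a 3.39-fold fall without overlap (log2 -1.76 ± 0.34 SE, edgeR adjusted p = 0.00249). The peaks came from another tissue preparation and carry no PTX condition.

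Markers of cell types moved between the culture groups as well. Summed over 4 excitatory neuron markers, levels were 412 to 501 CPM in CTRL and 173 to 227 CPM in PTX, and all 4 fell. The sum of 3 inhibitory markers was 462 to 563 CPM in CTRL and 790 to 881 CPM in PTX, and 2 rose. Of 5 general neuron markers 2 rose and 1 fell, with sums of 2940 to 3701 CPM in CTRL and 3820 to 4869 CPM in PTX. Of 5 astrocyte markers 2 fell, with sums of 4800 to 6961 and 3243 to 5239 CPM. Meningeal fibroblast markers, 6 genes, summed to 290 and 247 CPM in the libraries numbered 1 and to at most 223 and 129 CPM in the other libraries of CTRL and PTX. Endothelial markers summed to at most 7.58 CPM, with 1 of 3 higher in PTX. Oligodendrocyte and microglia markers summed to at most 36.8 and 42.9 CPM in any library, and no listed marker was at 0 in all libraries. In such bulk samples fewer cells of a type and less RNA per cell cannot be told apart, and the part of these shifts in the changes above was not tested. Without both libraries numbered 1, 164 narrow-peak genes rose and 120 fell.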

How the data were processed

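Per the labels, RNA-seq libraries were ribosomal RNA-depleted, and per the submitters' processing notes the tools included TopHat2 2.0.9 and Bowtie2 2.2.4, with HTSeq 0.6.1 and CASAVA 1.8. The authors deposited raw read counts per gene and a peak list (mm10) with a score per peak. The sources used here do not name the peak caller, the reproducibility threshold or how samples were combined. Lines that name no gene were left out of library sizes; reads assigned to no feature were 19.9% to 26.8% of all counted lines. Peaks were set against RefSeq gene ends (GRCm38.p6), with 20599 genes matched to the counts by symbol, 389 by synonym and 899 not matched. Mean CTRL CPM used plain library totals. Members and gene lists were chosen with earlier results of these data known. PTX was compared with CTRL by edgeR 4.0.16 (R 4.3.3, TMM, filterByExpr, quasi-likelihood test) over 15959 genes. Every pair of libraries within a group differed by more than sampling noise. Same-numbered libraries deviated together for numbers 1, 2 and 4 (correlations 0.77, 0.57 and 0.61). For number 3 the correlation was 0.15, while CTRL replicate 3 had 0.21 with PTX replicates 2 and 4. The main fit did not use the numbers. The fit with the replicate block takes them to pair the samples, and it is given where it changes the call of a listed gene or moves a count. Alternatives, run with DESeq2 1.42.0 among others, are given below. Named genes were L3mbtl1, the 10 highest scores, the 10 largest rises and falls among called genes of at least 5 CPM whose groups did not overlap, up to 3 per list by smallest p, genes with 2 or more peaks, the 5 narrowest peaks and those at the thresholds. Other members of small counts and the genes with a full cyclic AMP response element were named after their values were seen. Some items that the rule names are not reported here. The fit was tested on simulated counts, and RefSeq promoter sequences (250 bases before to 50 after the start) were listed for 522 peaks.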

Additional observations from a re-analysis of the deposited data

Results flagged for a closer look

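Among 117 named genes, L3mbtl1 not included, each with 2 groups of 4 libraries, 10 groups held a library whose gap to the nearest other took up most of the group's range. About 5% of groups are picked out by chance, and 10 of 234 is near that share. PTX replicate 3 was the distant library for Elmo1 (124 CPM, the others 79.2 to 86.8), Bag6 (59.98 CPM, the others 66.4 to 67.0) and BC052040 (3.10 CPM, the others 2.31 to 2.43). PTX replicate 1 was distant for Hspa12a (76.1 CPM, the others 40.6 to 46.5) and Ksr2 (15.9 CPM, the others 10.4 to 11.3), and CTRL replicate 1 for Acly, the ATP citrate lyase gene (280 CPM, the others 163 to 174). PTX replicate 2 was distant for Park7, the DJ-1 gene (111 CPM, the others 91.6 to 93.4), and for the elongation factor gene Supt5 (120 CPM, the others 109 to 111). CTRL replicate 4 was distant for Lsm4 (11.04 CPM, the others 13.6 to 13.9) and Rpl14 (176 CPM, the others 188 to 190).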

How the results depend on the processing

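The number of narrow peaks fell from 647 to 420 with a width limit of 300 bp and to 250 when the score had to reach the list's median, since both keep fewer peaks. With that score 68 genes rose and 49 fell, and with 300 bp 91 fell. As shares of the genes kept, rises were 24.6% in the main setting, 27.9% with the score limit and 25.1% with 300 bp, and falls were 23.2%, 20.1% and 22.6%. Peaks over a start numbered 87. They were 37 with the score limit, and 284 had a midpoint within 250 bp of the start. With the replicate block, which pairs same-numbered libraries, 194 genes rose and 197 fell, all 291 called genes stayed called, and 8820 of all genes tested were called against 6248 without it. Leaving out each library in turn gave 131 to 170 rises and 94 to 139 falls, and 5119 to 6229 calls over all genes. Falls were fewest without PTX replicate 3, and rises and calls over all genes were fewest without CTRL replicate 3. Under the 13 alternative fits no called narrow-peak gene changed sign, and 62 of 76 named and called genes stayed called in each fit. The 20 largest changes at a mean of at least 5 CPM, as named, were among these 62. These counts include L3mbtl1. Of 42 named genes that were not called, 19 were called in at least 1 alternative. Peaks at genes with 1 listed start, a choice added after seeing the data, gave 69 over a start. Peak scores have no replicates or depth here, so no error can be given for them.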

Other observations

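Narrow peaks on the X chromosome numbered 5 (0.77% of narrow peaks), where 3.54% of the expressed protein-coding genes lay. The whole list had 26 peaks there (0.56%).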
